A study of Mus musculus with 12 samples.

Results

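The genes Ccl20, Nppb, Vgf and Npy each encode a protein or peptide that cells secrete. They were followed by symbol through all 12 RNA sequencing libraries of the study, as 4 of the 25897 gene symbols counted. They were chosen by their measured counts, as secreted peptide genes with some of the largest increases after 4-hydroxytamoxifen (4OHT). Their differences from untreated cells are therefore a description here and carry no test. The cells were E14tg2a, a mouse embryonic stem cell line of 129SV background, and all of them carried cRAF-ERT2, a kinase joined to the ligand-binding domain of the oestrogen receptor. Addition of 4OHT releases such a kinase and so activates ERK signalling. Libraries came from 3 clones, named a, b and c, without treatment and at 1, 2 and 4 h of 250 nM 4OHT, which gives 4 groups of 3 libraries with 1 library per clone and time. Cells of every group had been kept in serum with LIF and 2 µM Chir99021, a GSK3 inhibitor, and then for the last 24 h in serum with LIF and 250 nM PD173074, which blocks FGF receptor kinases. Every group also received 5 mM ethynyl uridine for 15 min, and the libraries were made from total RNA depleted of ribosomal RNA. A vehicle-treated group was not analysed here, so the effect of the kinase and that of 4OHT or its solvent cannot be told apart.

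Secreted peptides of this kind are made as larger precursors that enter the secretory pathway, where a signal sequence and often further pieces are cut away. Neuropeptides such as NPY and granin-like proteins such as VGF are stored in dense-core vesicles of neurons and endocrine cells, brain natriuretic peptide is released by the stretched heart, and CCL20 is a chemokine of epithelia and immune cells that draws cells bearing the receptor CCR6. In neuronal and epithelial cells, growth factor signalling through ERK is a known inducer of several genes of this type.

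Total counts were 24213641 to 31435301 per library. Levels are given as raw counts and as CPM, counts scaled to the size of the library with TMM factors, and means are ± SD over 3 clones. The 8 markers of embryonic stem cells, among them Pou5f1, Sox2 and Nanog, were all measured and summed to 4287 to 4307 CPM at 4 h, against 4307 to 4699 CPM in untreated cells. Within that sum Nanog fell by 1.31 in log2 at 4 h and Utf1 rose by 1.60 (edgeR adjusted p = 0.000126 and 0.000737). The 8 epithelial markers, 6 of them tested, summed to 519 to 944 CPM at 4 h and 456 to 553 CPM in untreated cells. The 8 feeder fibroblast markers, 3 of them tested, summed to 13.1 to 29.05 CPM at 4 h and 5.45 to 8.75 CPM in untreated cells. Most of the fibroblast sum at 4 h was Thy1, at 17.0 CPM, against 3.42 CPM in untreated cells. Col1a1 was at 0.816 and 0.326 CPM and Pdgfra at 1.77 and 2.77 CPM, at 4 h and untreated. The other fibroblast markers had too few reads to test, so the sum does not describe the set. The part of these epithelial and fibroblast markers in the results was not tested. In bulk RNA, a change in the number of cells that express a gene and a change in the RNA per cell cannot be told apart. Intervals on ratios and limits for 0 counts cover counting error only.

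Ccl20 (ENSMUSG00000026166.14), the CCR6 ligand, had no reads at all before 4OHT. It lies on chr1:83116766-83119167 of GRCm38, on the plus strand, with 3 exon blocks. The counts in clones a, b and c were 0, 0 and 0 untreated, 6, 8 and 3 at 1 h, 68, 266 and 116 at 2 h, and 297, 2933 and 883 at 4 h. Each clone therefore had some reads by 1 h and its highest count at 4 h, with clone b far above the others. The mean level was 0.214 ± 0.0886 CPM at 1 h, 5.28 ± 3.40 CPM at 2 h and 48.6 ± 45.6 CPM at 4 h (n = 3 clones each). The 0 counts of the 3 untreated libraries allow a pooled level of up to 0.0347 CPM, that of 3 counts over the group. Against that limit, Ccl20 was at least 6.19-fold higher at 1 h, at least 155-fold higher at 2 h and at least 1466-fold higher at 4 h. Without the treated libraries of clone b, a setting added after the data were seen, it was at least 97.8-fold higher at 2 h and at least 662-fold higher at 4 h.

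As a fold, the step from 1 h to 2 h was larger than that from 2 h to 4 h for this chemokine. Pooled over the clones, the level at 2 h was 25.1 times that at 1 h (95% counting interval 15.5 to 43.5), and the level at 4 h was 9.43 times that at 2 h (8.56 to 10.4). In clone a the step from 2 h to 4 h was 4.38-fold (3.36 to 5.79), and in clone b it was 10.9-fold (9.64 to 12.4). The steps thus differed in size between the lines, and the level in each line was still higher at the last time sampled.

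The RefSeq promoter table (GRCm38.p6) holds the 250 bases before the Ccl20 start, chr1:83116516-83116765 on the plus strand. They are shown because NF-kB is a known activator of Ccl20 in other cells and because 1 match to its site was found in this window, in capitals:
Ccl20: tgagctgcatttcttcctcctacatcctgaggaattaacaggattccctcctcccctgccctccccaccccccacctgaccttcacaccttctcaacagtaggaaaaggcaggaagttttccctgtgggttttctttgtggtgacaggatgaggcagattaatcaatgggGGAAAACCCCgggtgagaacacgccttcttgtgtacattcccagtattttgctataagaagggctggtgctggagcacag
The match lay 80 bases before the start, on the minus strand, at chr1:83116686-83116695. An NF-kB site match was present in 3.75% of 27025 promoter windows of this length. Nfkb1, which encodes a precursor of an NF-kB subunit, rose to 96.9 ± 7.003 CPM at 4 h, against 44.3 ± 2.25 CPM in untreated cells (n = 3 each), a log2 change of 1.13 ± 0.09 (SE, edgeR with Benjamini-Hochberg adjustment, adjusted p = 4.68e-05). The other NF-kB genes listed, named after their values were seen, differed in direction. Rela was at 0.63 ± 0.16 (edgeR adjusted p = 0.0137, or 0.13 without clone b). Nfkb2 was at 0.25 ± 0.15 (edgeR adjusted p = 0.218) and Relb at 0.13 ± 0.11 (0.380). Nfkbia, which encodes an inhibitor of NF-kB, was at −0.79 ± 0.46 (edgeR adjusted p = 0.211, or 0.00622 when blocked on clone). Markers of immune cells moved alongside in part. The 8 listed, of which 3 had enough reads to be tested and Itgam was at 0 in every library, summed to 12.9 to 22.3 CPM at 4 h and 6.29 to 8.79 CPM in untreated cells. Most of the sum was Cd68, at 13.8 CPM at 4 h and 6.50 CPM in untreated cells. Ptprc, the pan-leukocyte phosphatase CD45, was at 2.70 ± 1.88 CPM at 4 h and 0.129 ± 0.0281 CPM in untreated cells. Cd3e was at 0.748 CPM at 4 h and 0.714 CPM in untreated cells. The part of the immune markers in the Ccl20 result was not tested.

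Nppb (ENSMUSG00000029019.8), the precursor of brain natriuretic peptide, reached the highest single value of the 4 genes. It lies on chr4:147985788-147987205 of GRCm38, on the plus strand, with 3 exon blocks. Its counts in clones a, b and c were 13, 13 and 13 untreated, 13, 42 and 45 at 1 h, 86, 1694 and 393 at 2 h, and 144, 5478 and 705 at 4 h. The untreated libraries were alike, while after 4OHT clone b stood far above clone c and clone c above clone a from 2 h on. Mean levels were 0.456 ± 0.0585 CPM untreated, 1.24 ± 0.626 CPM at 1 h, 25.1 ± 28.96 CPM at 2 h and 73.1 ± 98.3 CPM at 4 h, so that from 2 h on the SD over clones exceeded the mean.

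Pooled over clones, Nppb was 2.80-fold higher at 1 h than in untreated cells (95% counting interval 1.92 to 4.17), 57.7-fold higher at 2 h (42.1 to 81.4) and 174-fold higher at 4 h (127 to 244). The pooled values describe none of the lines well. At 4 h the fold over the same clone untreated was 13.8 in clone a (7.81 to 26.5), 359 in clone b (210 to 675) and 61.9 in clone c (36.0 to 117). Without the treated library of clone b, the pooled fold was 19.6 at 2 h and 36.7 at 4 h. The fitted log2 change without it was 4.05 at 2 h and 4.99 at 4 h, against 5.58 and 7.12 with all libraries. In clone a the count at 1 h was equal to the untreated one, and the ratio of levels was 1.32 with an interval of 0.565 to 3.10.

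A TATA box is a core promoter element that many inducible genes carry close to their start. The Nppb window of the RefSeq table held 1 match to TATAAA, which 13% of the 27025 windows also held. It lay 31 bases before the start that the table uses, which is downstream of the first base that GENCODE gives the gene, and is shown in capitals within 30 bases of the plus strand at chr4:147985857-147985886:
Nppb: actcagccccagTATAAAaggcagaggcac
The 8 cardiomyocyte markers, of which 5 were tested, summed to 36.9 to 44.2 CPM at 4 h and to 66.8 to 80.9 CPM in untreated cells. Most of the sum was Ttn, at 23.5 CPM at 4 h and 38.2 CPM in untreated cells (edgeR adjusted p = 0.00592), and Ryr2, at 11.3 CPM at 4 h and 26.7 CPM in untreated cells (edgeR adjusted p = 0.00309, or 0.0908 without clone c). Nkx2-5 and Actc1 had too few reads to test and were at 0.137 and 0.0599 CPM at 4 h, against 0.0103 CPM each in untreated cells. Their part in the Nppb result was not tested.

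Vgf (ENSMUSG00000037428.14) encodes a granin-like protein, named for its induction by nerve growth factor in rat PC12 cells, that is cut into several bioactive peptides. It lies on chr5:137026392-137033351 of GRCm38, on the plus strand, with 6 exon blocks. The counts in clones a, b and c were 10, 3 and 7 untreated, 15, 24 and 12 at 1 h, 31, 202 and 112 at 2 h, and 136, 574 and 246 at 4 h. The lowest treated count was 12 and the highest untreated one was 10, so the groups lay close at 1 h and far apart at 4 h. Mean levels were 0.223 ± 0.0959 CPM untreated, 0.639 ± 0.198 CPM at 1 h, 4.03 ± 2.86 CPM at 2 h and 11.5 ± 7.29 CPM at 4 h.

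Pooled over clones, Vgf was 2.79-fold higher at 1 h than in untreated cells (95% counting interval 1.63 to 4.93), 17.9-fold higher at 2 h (11.4 to 29.6) and 51.1-fold higher at 4 h (32.9 to 84.1). Within clones a and c the 1 h intervals, 0.834 to 4.94 and 0.683 to 5.64, included 1. Such intervals within a clone cover the counting error of single libraries only and carry no test. At 4 h the fold was 16.9 in clone a (8.93 to 36.1), 163 in clone b (55.5 to 793) and 40.1 in clone c (19.2 to 101). The wide interval of clone b comes from the 3 reads of its untreated library. Levels at 4 h over 2 h were 4.40 in clone a (2.96 to 6.73), 2.82 in clone b (2.40 to 3.33) and 2.44 in clone c (1.94 to 3.07). Without the treated library of clone b, the pooled fold over untreated cells was 11.4 at 2 h and 32.2 at 4 h.

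Npy (ENSMUSG00000029819.6), the precursor of neuropeptide Y, a peptide of neurons that acts in appetite and vascular tone, had the narrowest spread between clones at 1 h. It lies on chr6:49822710-49829507 of GRCm38, on the plus strand, with 4 exon blocks. Its counts in clones a, b and c were 10, 10 and 8 untreated, 26, 34 and 32 at 1 h, 35, 105 and 137 at 2 h, and 138, 570 and 505 at 4 h. All 3 lines were alike at 1 h, and from 2 h on clones b and c stood together above clone a. Mean levels were 0.328 ± 0.0629 CPM untreated, 1.16 ± 0.0854 CPM at 1 h, 3.27 ± 1.79 CPM at 2 h and 14.9 ± 8.29 CPM at 4 h.

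Pooled over clones, Npy was 3.59-fold higher at 1 h than in untreated cells (95% counting interval 2.33 to 5.69), 10.3-fold higher at 2 h (6.94 to 15.7) and 46.3-fold higher at 4 h (31.9 to 70.0). Over the same clone untreated, the ratios at 1 h were 3.44 in clone a, 3.02 in clone b and 4.39 in clone c. Each ratio rests on single libraries of a gene chosen for its increase, so it is a description and carries no test. In clone a the level at 2 h was 1.26 times that at 1 h (0.739 to 2.18), and the level at 4 h was 3.95 times that at 2 h (2.71 to 5.91), so its later step was the larger. The 8 neuronal and neuroendocrine markers, of which 6 were tested and Tubb3 was at 0, summed to 209 to 248 CPM at 4 h and 203 to 243 CPM in untreated cells. Stmn2 made up most of that sum, with 201.2 CPM at 4 h and 200.3 CPM in untreated cells. Syp, which encodes the vesicle protein synaptophysin, rose to 7.92 ± 4.09 CPM at 4 h, against 1.67 ± 0.0801 CPM in untreated cells, a log2 change of 2.25 ± 0.36 (edgeR adjusted p = 0.00105). Elavl4 was at 0.81 ± 0.25 (edgeR adjusted p = 0.0289, or 0.157 without clone c) and Map2 at −0.93 ± 0.31 (edgeR adjusted p = 0.0366, or 0.235 without clone b). Their part in the Npy and Vgf results was not tested.

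The window before the Npy start is shown for its base composition. Its 250 bases, chr6:49822460-49822709 on the plus strand, were 69.2% G or C and held 21 CG dinucleotides, shown in capitals, while 83.9% of the windows in the table held fewer:
Npy: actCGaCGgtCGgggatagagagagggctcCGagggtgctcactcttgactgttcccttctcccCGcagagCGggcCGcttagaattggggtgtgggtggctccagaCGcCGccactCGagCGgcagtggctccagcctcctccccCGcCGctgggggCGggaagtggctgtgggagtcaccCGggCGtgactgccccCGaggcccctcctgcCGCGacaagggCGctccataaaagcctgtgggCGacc
The Ccl20 window, printed above, was 51.2% G or C with 2 such dinucleotides, and the Nppb window was 54.8% with 5, while the median window of the table had 52.0% and 6. The 3 windows held no match on either strand to the CRE core TGACG or to the full palindrome of TGACG followed by TCA. They also held none to the AP-1 site TGANTCA, the CArG box, the EGR site or CCGGAA, a narrow form of ETS site. Other forms of ETS site were not searched for, so these windows may hold them. The CRE core lies within the palindrome. Of all windows, 17.9% held the CRE core, 1.62% the palindrome and 6.87% the AP-1 site. The CArG box was in 1.4%, the EGR site in 4.65% and CCGGAA in 12.2%, so that windows without them are the common case.

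**Figure D1:**
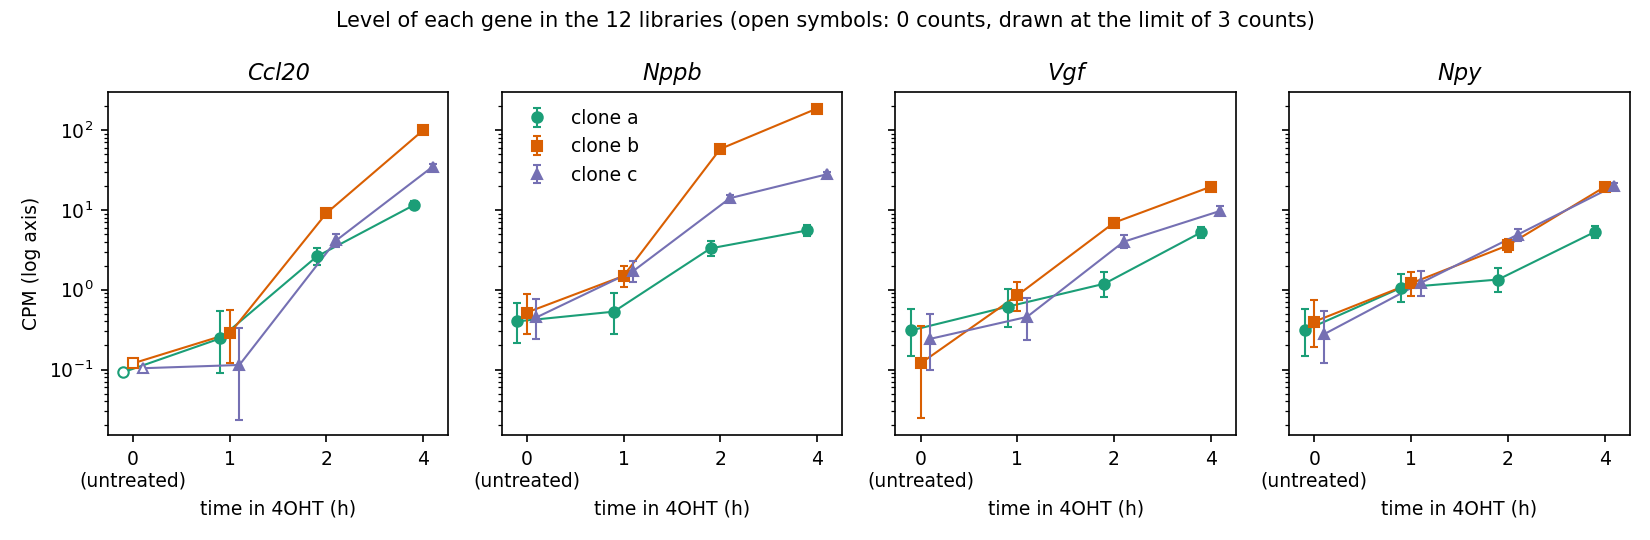
Levels of Ccl20, Nppb, Vgf and Npy in CPM on a log axis against time in 4OHT (h), with 1 symbol per library, lines joining the libraries of a clone, and bars for the 95% counting interval. Open symbols stand for 0 counts, drawn at the limit of 3 counts; at 4 h, clone a is the lowest in each panel, and clone b reaches 99.5 CPM for Ccl20 and 186 CPM for Nppb.

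The course over time had the same order in each gene, as the plot of levels by time shows. In all 4 genes and in each clone, the level was higher at each later time than at the one before. Of the 14185 genes with enough reads to be tested, 480 did the same (3.38%). Treated and untreated libraries did not overlap for any of the 4 at 1, 2 or 4 h, where 10.9%, 19.1% and 22.8% of tested genes had all treated libraries above all untreated ones. Since the genes were chosen for this increase, nothing is read from these counts. With a prior count of 2, the fitted log2 changes over untreated cells at 1, 2 and 4 h were 1.98, 6.21 and 9.39 for Ccl20, 1.34, 5.58 and 7.12 for Nppb, 1.24, 3.77 and 5.26 for Vgf, and 1.63, 3.07 and 5.23 for Npy. Ordered by that change, Ccl20 was rank 15 of 14185 at 1 h, rank 2 at 2 h and rank 1 at 4 h, while Npy was rank 22, 33 and 9. For Ccl20 this fitted value depends on the prior count, because the untreated libraries had no reads.

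The genes differed in the fold of each step between treated times. The earlier step spans 1 h and the later one 2 h, and the folds are not scaled for this. In CPM, the mean of all 4 genes rose more in the later step than in the earlier one. The pooled level at 2 h over that at 1 h was 25.1 for Ccl20, 20.6 for Nppb (95% counting interval 16.9 to 25.4) and 6.42 for Vgf (4.77 to 8.79), but 2.86 for Npy (2.25 to 3.66). The level at 4 h over that at 2 h was 9.43 for Ccl20 and 4.52 for Npy (3.96 to 5.17), while it was 3.01 for Nppb (2.86 to 3.16) and 2.86 for Vgf (2.53 to 3.24). In these pooled values Npy was the 1 gene of the 4 whose later fold was the larger. Within clone a the later fold was the larger for Vgf too, at 4.40 after 1.94.

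Levels can be set side by side between genes per kilobase of exon. In CPM per kb, the 4 h means were 93.6 ± 126 for Nppb, 34.2 ± 32.1 for Ccl20, 26.3 ± 14.6 for Npy and 3.86 ± 2.45 for Vgf (n = 3 clones). The first 3 did not differ beyond their spread, and the order changed between lines. In clone a at 4 h it was Npy with 9.36, Ccl20 with 8.03, Nppb with 7.08 and Vgf with 1.76 CPM per kb, whereas in clones b and c Nppb was the highest. Vgf was the lowest of the 4 in every library at 2 and 4 h. In untreated cells Nppb (0.584 ± 0.0749 CPM per kb) and Npy (0.579 ± 0.111) were level, above Vgf (0.0751 ± 0.0323) and Ccl20 at 0.

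Differences between the clones are another contrast than the differences between times by which the genes were chosen. They rest on the same 12 libraries, and clones with large values helped to choose the genes. The p-values that follow are therefore not independent of the choice and are given as a description only. Ccl20 had no untreated reads, and Vgf and Npy had 3 to 10 per untreated library. Ccl20, Vgf and Npy thus had enough reads to be tested only through their treated libraries. In a quasi-likelihood F test of clone with time in the model (edgeR, Benjamini-Hochberg adjustment over 14185 genes), all 4 genes passed the threshold of 0.05, as did 36% of genes tested. All 4 had both clone b and clone c above clone a, which 14% of tested genes did while passing. Nppb differed most, with a log2 ratio over clone a of 4.17 in clone b and 2.18 in clone c (adjusted p = 0.000295). For Ccl20 the log2 ratios were 2.54 and 1.20 (edgeR adjusted p = 0.000765), for Vgf 1.71 and 0.90 (edgeR adjusted p = 0.00688) and for Npy 1.32 and 1.45 (edgeR adjusted p = 0.0061), clone b before clone c. Over the 9 treated libraries alone, a test added after the data were seen, the adjusted p by edgeR was between 0.000289 for Nppb and 0.00463 for Npy, and 40.3% of genes passed. The Vgf call was lost in DESeq2 (adjusted p = 0.247) and without clone b (0.0723 by edgeR), and the Npy call was lost without clone a (0.409 by edgeR). The test compares these 3 lines, each with 1 library per time, and takes the ratio between clones as equal at all times.

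The ratios between single libraries were also taken at each time. In untreated cells the ratio of clone b to clone a was 1.29 for Nppb (95% counting interval 0.551 to 3.02), 0.387 for Vgf (0.0685 to 1.504) and 1.29 for Npy (0.482 to 3.45), and each interval included 1. At 4 h the same ratio was 33.6 for Nppb (28.5 to 39.9), 8.72 for Ccl20 (7.74 to 9.86), 3.73 for Vgf (3.09 to 4.53) and 3.65 for Npy (3.02 to 4.43). The ratio of clone c to clone a at 4 h was 5.04 for Nppb, 3.06 for Ccl20, 1.86 for Vgf and 3.77 for Npy. With 1 library per clone and time, a change of the ratio with time has no replicate check. The order was b, c, a at both 2 h and 4 h for Ccl20, Nppb and Vgf, and c, b, a for Npy, where b and c lay close at 4 h with 19.3 and 19.96 CPM.

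Clone b accordingly carries much of the pooled values. At 4 h it held 84.8% of the CPM summed over the 3 clones for Nppb, 68.2% for Ccl20, 56.6% for Vgf and 43.4% for Npy. Esr1 encodes the oestrogen receptor, and its counts may include reads from the construct. They also ranked b, c, a at every time. At 4 h Esr1 stood at 18.2 CPM in clone a, 260 CPM in clone b and 39.1 CPM in clone c, against 9.44, 93.4 and 38.8 CPM untreated (edgeR clone test, adjusted p = 1.58e-06). In untreated cells the level of Esr1 in clone b was 9.89 times that in clone a (8.78 to 11.2). Whether those reads came from the construct was not determined, and their part in the clone differences was not tested.

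**Figure D2:**
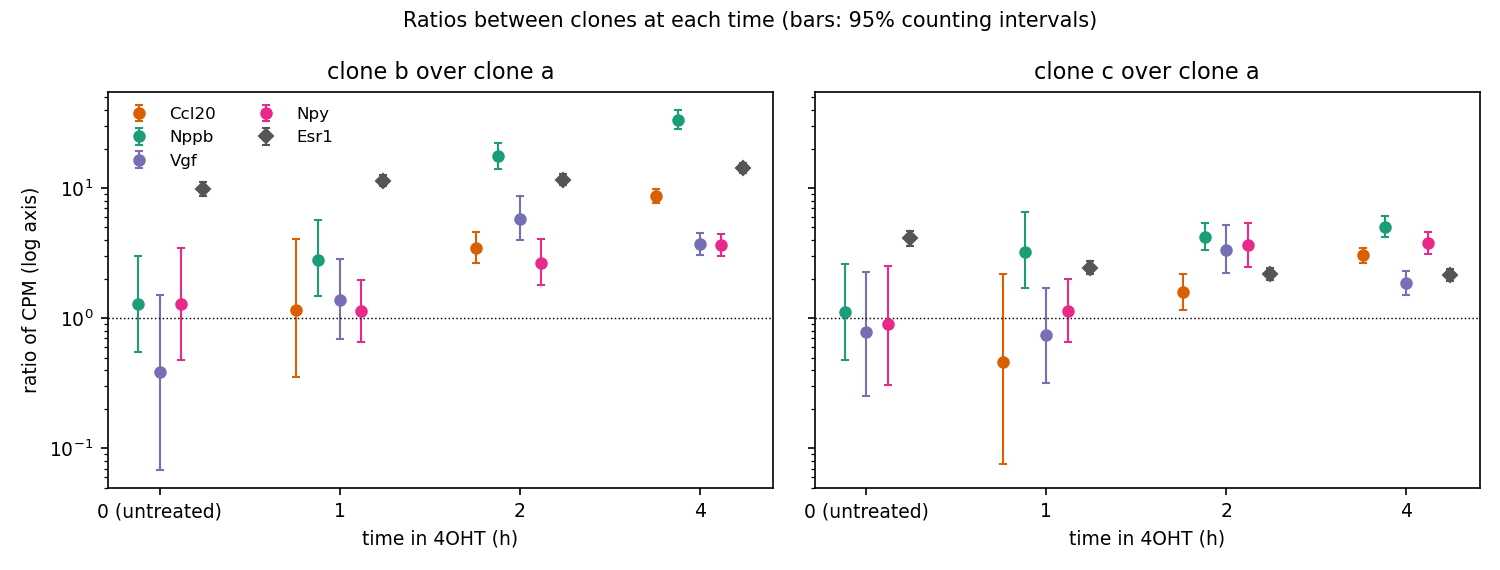
Ratio of CPM in clone b to clone a (left) and in clone c to clone a (right) for the 4 genes and Esr1, on a log axis, against time in 4OHT (h), with bars for 95% counting intervals. Untreated ratios of Nppb, Vgf and Npy have intervals that include 1, and at 4 h all 4 genes lie above 1 in both panels, with Nppb at 33.6 for clone b.

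The 4 genes were next set beside 165 related genes in 7 lists, which leave out the 4 themselves. Of these, 92 had enough reads to be tested. By edgeR, 26 rose and 8 fell at 4 h, where 18% of all tested genes rose and 15.1% fell. At 2 h 22 rose and 4 fell (9.56% and 6.64% of all tested genes), and at 1 h 3 rose and 0 fell (0.0775% and 0%), the 3 being the transcription factor genes Fos, Egr1 and Egr2. At 1 h DESeq2 and limma-voom also had 0 falling, and 17 of the 92 had an unadjusted p under 0.05 by edgeR in either direction. The median log2 change of the 92 was 0.03, 0.12 and 0.15 at 1, 2 and 4 h, against −0.02 for all tested genes at each time. In the fit that blocks on clone, 36 rose and 14 fell at 4 h (26.2% and 25.7% of all tested genes), 30 rose and 11 fell at 2 h (20.6% and 20%), and 12 rose and 2 fell at 1 h (5.41% and 1.58%). Without clone c, 10 rose and 2 fell at 4 h, and 0 rose and 0 fell at 2 h.

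Most chemokines other than Ccl20 had too few reads to test. Of 36, 17 had no read in any library and 7 were tested. At 4 h, 2 rose and 2 fell, also when blocked on clone, and the median log2 change of the 7 was −0.16. For comparison, 18% of all tested genes rose and 15.1% fell, or 26.2% and 25.7% when blocked on clone. Cxcl14, a chemokine of epithelia, had counts of 63, 147 and 137 at 4 h, against 13, 13 and 20 in untreated cells, and rose by 2.99 ± 0.45 in log2 (SE; edgeR adjusted p = 0.000847). Cxcl16, a membrane-bound chemokine that is also shed, rose by 1.49 ± 0.23 (edgeR adjusted p = 0.000945), and its exons overlap Zmynd15 on the other strand. Cxcl12, the ligand of CXCR4, had 3, 3 and 2 reads at 4 h, against 30, 29 and 18 in untreated cells, a log2 change of −3.12 ± 0.38 (edgeR adjusted p = 0.000288). Ccl25, whose exons overlap Elavl1, was at −0.90 ± 0.17 (edgeR adjusted p = 0.00313, or 0.0856 without clone c). Both had also fallen by 2 h, when Cxcl12 was at −1.51 ± 0.31 (edgeR adjusted p = 0.0133).

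Of 53 other neuropeptide and peptide hormone precursors, 20 were tested and 7 had no reads. At 4 h 3 rose and 1 fell, or 6 and 2 when blocked on clone, with a median log2 change of 0.08. Among all tested genes 18% rose and 15.1% fell, or 26.2% and 25.7% when blocked on clone, so these counts are not read as a trait of the list. Pomc, the precursor of ACTH, melanocortins and beta-endorphin, had 59, 134 and 105 reads at 4 h, against 6, 7 and 4 in untreated cells, and rose by 4.18 ± 0.45 in log2 (SE; edgeR adjusted p = 0.000163). Pdyn, the precursor of dynorphins, rose by 3.11 ± 0.32 (edgeR adjusted p = 0.000156). Its counts were 86, 182 and 70 at 4 h, against 18, 9 and 14 in untreated cells. Trh, the thyrotropin-releasing hormone precursor, was already abundant, with 2073 ± 423 CPM at 4 h and 414 ± 87.8 CPM in untreated cells, and rose by 2.32 ± 0.23 (edgeR adjusted p = 0.000121). At 2 h the 3 that rose were again Trh, Pomc and Pdyn, where 9.56% of all tested genes rose. Before treatment Pomc and Pdyn were under 1 CPM, as were all 4 peptide genes and other listed genes such as Cxcl14 and Cxcl12. In both Pomc and Pdyn, clone b was the highest at 4 h. Apela, which encodes a ligand of the apelin receptor, was at −0.87 ± 0.25 at 4 h (edgeR adjusted p = 0.0216, or 0.226 without clone c). Among the precursors with too few reads to test, the highest count was 61 for Edn2, the endothelin 2 precursor, in clone b at 4 h, beside 6 in clone a and 9 in clone c, and 0, 4 and 2 in untreated clones a, b and c. Edn2 was named after its values were seen.

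Granins and related cargo of the regulated secretory pathway made up another list. Of 11 such genes other than Vgf, 10 were tested, with a median log2 change of 0.32 at 4 h, against −0.02 for all tested genes. At that time 1 rose, where 18% of all tested genes did. That gene was Nptx2, a neuronal pentraxin that binds glutamate receptors, at 125 ± 51.5 CPM at 4 h and 36.8 ± 6.68 CPM in untreated cells, with a log2 change of 1.76 ± 0.25 (edgeR adjusted p = 0.00064). Its relative Nptx1 was past the threshold at 2 h, at 1.25 ± 0.34 (edgeR adjusted p = 0.0337, or 0.293 without clone c), and at 0.63 ± 0.35 at 4 h (edgeR adjusted p = 0.185). With clone as a block 4 of the 10 rose at 4 h, where 26.2% of all tested genes did.

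**Figure D3:**
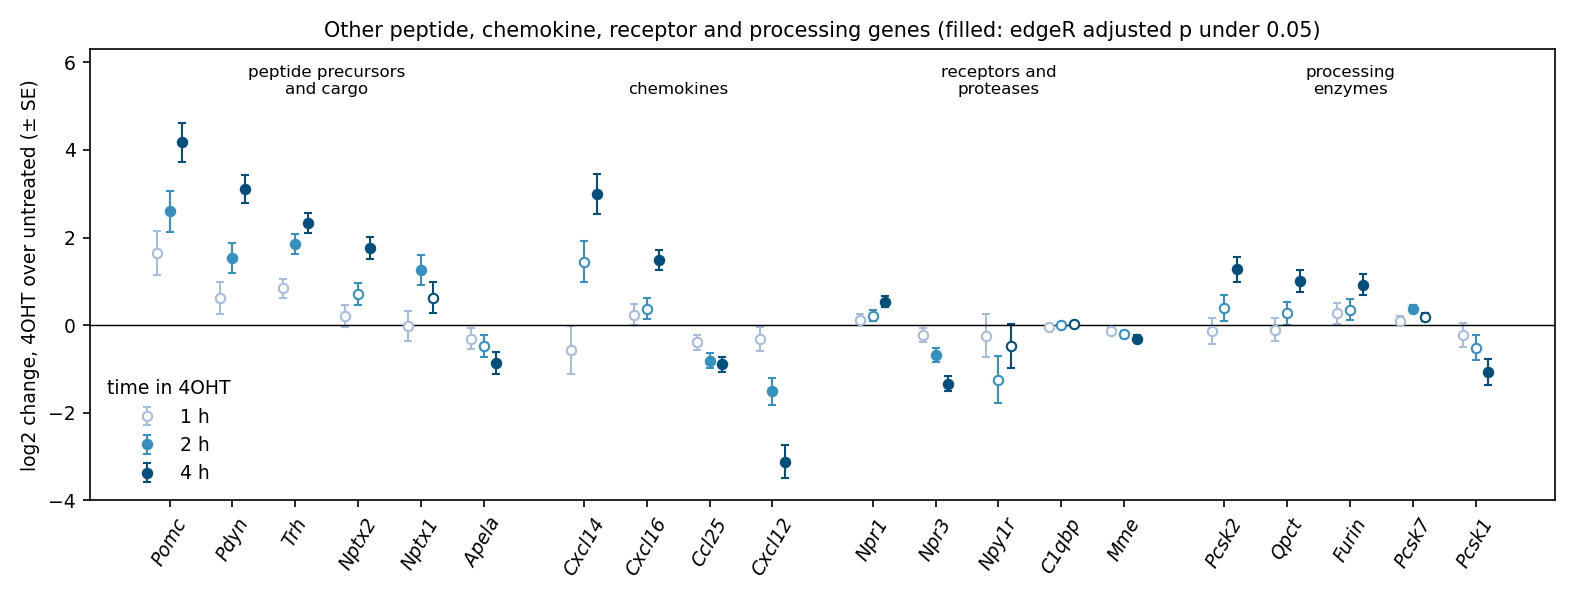
Fitted log2 change over untreated cells (± SE) of named peptide precursors and cargo, chemokines, receptors and proteases, and processing enzymes, at 1, 2 and 4 h of 4OHT, with filled symbols for an edgeR adjusted p under 0.05. Pomc at 4.18 and Pdyn at 3.11 are highest at 4 h, Cxcl12 at −3.12 is lowest, and C1qbp stays near 0.

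Of 10 receptor genes for the 4 peptides 4 were tested, and at 4 h 1 rose and 1 fell, both receptors of natriuretic peptides. Over all tested genes, 18% rose and 15.1% fell. Ccr6, the receptor of CCL20, had 1 to 13 reads per library and was not tested. It had 13, 6 and 5 reads in the 3 clones at 4 h, and 4, 3 and 1 in untreated cells. Npr1, the guanylyl cyclase that binds natriuretic peptides, rose by 0.53 ± 0.12 on the log2 scale at 4 h (SE; edgeR adjusted p = 0.00721, or 0.0925 without clone c), with 16.2 ± 0.584 CPM at 4 h and 11.2 ± 0.688 CPM in untreated cells. Npr3, the receptor that clears these peptides, went the other way, with 9.53 ± 1.83 CPM at 4 h and 24.1 ± 2.40 CPM in untreated cells, and fell by 1.33 in log2 (SE 0.17; edgeR adjusted p = 0.000323). Both genes have exons that overlap a gene on the other strand. Of the NPY receptors, Npy1r was the one tested, at −0.47 ± 0.50 at 4 h (edgeR adjusted p = 0.493) and −1.25 ± 0.54 at 2 h (edgeR adjusted p = 0.127, or 0.0331 when blocked on clone). Npy4r had 4 to 13 reads per library, and Npy2r, Npy5r and Npy6r had 0 or 1. Of the receptors described for the VGF peptide TLQP-21, C3ar1 had 0 or 1 read per library, and C1qbp was at 166 ± 7.32 CPM at 4 h and 163 ± 7.21 CPM in untreated cells (log2 change 0.02 ± 0.06, edgeR adjusted p = 0.836).

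The next list held enzymes that cut and modify peptide precursors. Of 19, 18 were tested, with a median log2 change of 0.05 at 4 h, and 3 rose and 1 fell, or 6 and 4 when blocked on clone. Among all tested genes 18% rose and 15.1% fell at that time, or 26.2% and 25.7% when blocked on clone. Pcsk2, a convertase of dense-core vesicles, rose by 1.28 ± 0.28 in log2 (SE; edgeR adjusted p = 0.00615, or 0.0639 without clone c). Qpct, which forms the N-terminal pyroglutamate of peptides such as TRH, rose by 1.01 ± 0.26 (edgeR adjusted p = 0.0121, or 0.158 without clone b). Furin, a convertase of the trans-Golgi network that can cut pro-BNP, rose by 0.92 ± 0.23 (edgeR adjusted p = 0.0117, or 0.167 without clone b). Pcsk1, the other main convertase of dense-core vesicles, was named after its values were seen and fell by 1.07 (SE 0.29, edgeR adjusted p = 0.0172, or 0.168 without clone c). At 2 h the 1 enzyme gene that rose was Pcsk7, at 0.37 ± 0.09 (edgeR adjusted p = 0.026, or 0.291 without clone c). Mme, or neprilysin, which degrades natriuretic peptides, was at −0.31 ± 0.08 at 4 h (edgeR adjusted p = 0.0143, or 0.152 without clone c). Of the 8 tested genes of the list on natriuretic peptides, their receptors and proteases, 2 rose and 2 fell at 4 h, and these were Npr1, Furin, Npr3 and Mme. Blocked on clone, 2 rose and 3 fell, beside the same shares of all tested genes as above. The exons of Furin, Pcsk2 and Pcsk7 overlap other genes, whose reads could not be separated.

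The last list held transcription factors linked to ERK, most of which bind the motifs searched for above. Of 32, 31 were tested, and 3 rose at 1 h, 17 at 2 h and 16 at 4 h, with 0, 1 and 2 falling. The shares of all tested genes were 0.0775%, 9.56% and 18% rising and 0%, 6.64% and 15.1% falling. Blocked on clone, 10, 19 and 18 rose and 1, 3 and 3 fell. With that block, 5.41%, 20.6% and 26.2% of all tested genes rose and 1.58%, 20% and 25.7% fell. Their median log2 change was 0.25, 0.39 and 0.54. Fos, a subunit of AP-1, was at 4.49 ± 0.53, 3.91 ± 0.52 and 2.67 ± 0.50 on the log2 scale at 1, 2 and 4 h (SE; edgeR adjusted p = 0.011, 0.00292 and 0.00277), so it was highest at 1 h, when Ccl20 had 3 to 8 reads. The Fos call at 1 h was lost without clone c (edgeR adjusted p = 0.795), without clone b (0.273) and in limma-voom (0.0879). It was also lost on leaving out any 1 of 5 libraries, the 3 untreated ones and those of clones b and c at 1 h. With these left out, adjusted p by edgeR was between 0.0564 and 0.117. Without clone c, Fos also lost its calls at 2 h (edgeR adjusted p = 0.236) and 4 h (0.0841). Etv4, an ETS factor, followed the course of the peptide genes, with 18.2 ± 4.13, 25.4 ± 5.40, 50.7 ± 8.65 and 113 ± 20.9 CPM from untreated to 4 h, and was at 2.63 ± 0.22 at 4 h (edgeR adjusted p = 4.89e-05). Atf4, a CRE-binding stress factor, was at 0.61 ± 0.07 at 2 h (edgeR adjusted p = 0.00161, or 0.217 without clone c). Creb1 and Rest were the 2 that fell at 4 h and were named after their values were seen. Creb1, which binds CREs, was at −0.65 ± 0.17 (edgeR adjusted p = 0.0135, or 0.124 without clone b), and Rest, a repressor of neuronal genes, was at −0.49 ± 0.08 (edgeR adjusted p = 0.00106, or 0.0542 without clone c).

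The nearest tested genes on each side of the 4 had far smaller changes than the genes they flank. Since the 4 were chosen for large increases, nothing is read from that contrast. Beside Nppb, the atrial peptide gene Nppa starts 13.5 kb further on and had 9, 9 and 10 reads at 4 h, against 9, 8 and 10 in untreated cells (log2 change 0.15 ± 0.36, edgeR adjusted p = 0.794). An antisense gene overlaps the exons of Nppa. On the other side of Nppb, 2510039O18Rik at 38.5 kb rose by 0.59 ± 0.17 (edgeR adjusted p = 0.0194, or 0.115 without clone b). Beside Vgf, Ap1s1, a clathrin adaptor subunit gene 1.6 kb away, rose by 0.42 ± 0.12 (edgeR adjusted p = 0.0222, or 0.205 without clone b), and Plod3 at 29.7 kb rose by 0.63 ± 0.13 (edgeR adjusted p = 0.00377, or 0.0625 without clone b). The exons of Plod3 overlap Znhit1 and a microRNA gene.

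The neighbours of Ccl20 and Npy lie farther off. Slc19a3, a thiamine transporter gene 78.3 kb from Ccl20, was at −1.17 ± 0.48 (edgeR adjusted p = 0.0806, or 0.00483 when blocked on clone), and Pid1 at 917.1 kb was at 0.31 ± 0.17 (edgeR adjusted p = 0.184, or 0.0176 when blocked on clone). Beside Npy, Mpp6 at 280.7 kb rose by 0.32 ± 0.09 (edgeR adjusted p = 0.0199, or 0.25 without clone c), and Stk31 at 353.2 kb was at −0.07 ± 0.13 (edgeR adjusted p = 0.705). Of the 8 neighbours, 4 rose at 4 h, where 18% of all tested genes rose.

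**Figure D4:**
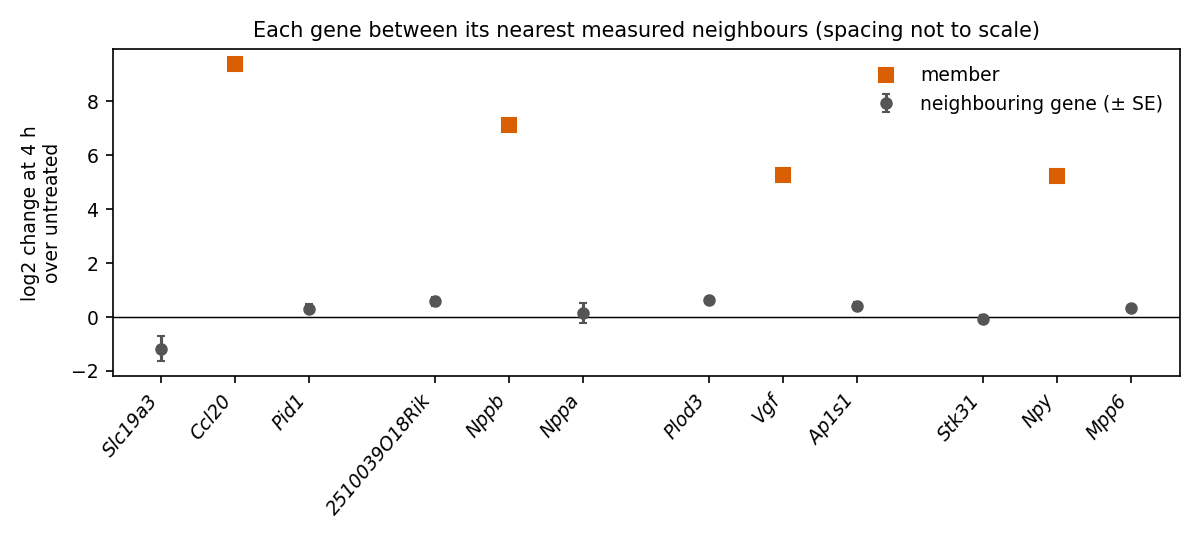
Fitted log2 change at 4 h over untreated cells of each peptide gene (squares, prior count 2, no test) and of its nearest tested neighbour on either side (circles, ± SE), with spacing not to scale. The 4 peptide genes lie between 5.23 and 9.39, and the 8 neighbours between −1.17 and 0.63.

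Across the 12 libraries the 4 genes ran close to one another, with Pearson's r of log2 CPM between 0.907 for Nppb with Npy and 0.982 for Ccl20 with Vgf. The 4 genes were chosen for large rises over these same libraries, so a high r between them follows from the choice. The libraries also share clones and times, so these values and the next ones are descriptions. Among 11848 genes of at least 1 CPM on average, the genes most like Ccl20 were Dusp4, a MAP kinase phosphatase, at r = 0.998, Efs, a Src-binding adaptor, at 0.997, and Pla2g7, a secreted phospholipase, at 0.989. Pla2g7 was also the gene most like Vgf, at 0.988, before the semaphorin and VEGF receptor Nrp2 at 0.982 and Wnt7b at 0.980. Most like Npy were the adaptor Shc1 and the retinoic acid receptor Rarg, both at 0.983, and the peptide precursor Pomc at 0.982. For Nppb they were Reep3, Btbd10 and the transcription factor Nrf1, all at 0.986. Their sizes of change differed. At 4 h Pomc was at a log2 change of 4.18, beside 5.23 for Npy. Dusp4 was at 85.9 CPM and 4.64 CPM untreated on average, a log2 change of 4.21, and Nrf1 was at 198 CPM and 138 CPM untreated, a log2 change of 0.52. The choice of measure mattered, since by Spearman's rho, ties included, 1 of these 3 genes was within the first 3 for Ccl20 and for Npy, and 0 for Nppb and Vgf. With clone means taken out, 2 of 3 were within the first 3 for Ccl20, 1 for Npy and 0 for Nppb and Vgf. The exons of Pla2g7, Wnt7b and Reep3 overlap genes on the other strand.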

How the data were processed

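Per the labels' protocols, total RNA depleted of ribosomal RNA was made into libraries with the NEB Next Ultra 2 kit. The submitters' processing notes name STAR, featureCounts, DESeq and the mm10 build. Their versions, the annotation and the strand setting are not given in the sources used, so reads of overlapping genes could not be separated. The treatment protocol in the labels names only 0 h and 2 h, while the titles and the design name all 4 times. The authors deposited raw read counts by gene symbol, in 1 table of 12 columns, and the time and clone in a column's name gave its sample.

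Genes passing edgeR's filterByExpr (minimum count 10, minimum total 15) were tested, 14185 in all, with TMM scaling and a quasi-likelihood fit to all 12 libraries, which left 8 residual degrees of freedom. The software was R 4.3.3 with edgeR 4.0.16 and limma 3.58.1. Tests were 2-sided, with Benjamini-Hochberg adjustment over all genes tested and a threshold of 0.05. The SE of a log2 change is its size divided by the square root of F, and is approximate. P-values of the fit without clone measure the spread between these 3 clones. The clone test and the fit blocked on clone left 6 residual degrees of freedom. Their p-values measure the scatter that remains after clone and time, with libraries of a clone at different times as replicates. Nothing in the labels says whether the libraries of a clone came from separate cultures. Alternatives were clone as a block, RLE size factors, no filter on low counts, DESeq2 1.42.0, limma-voom, another prior count and leaving out libraries or clones. Clone letters pair libraries, since 18 of 18 pairs of libraries from the same clone deviated together from their group means (r 0.184 to 0.684). The 36 pairs from different clones had r of −0.568 to −0.024. Taking out group means pushes these values below 0, so they are no separate evidence. Both fits were run on simulated counts with 200 changed genes each, and all were recovered, with 0 false calls at 4 h and 8 for clone. The changed genes there had more reads than the 4 genes had untreated. The simulated spread was below that of the fit without clone. The simulation therefore does not cover genes as low as these.

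The 4 genes and all lists were chosen with earlier results of these data known. Of each list, up to 4 genes past the threshold at any time were named by smallest p, with all receptors, the nearest tested neighbours, and the 3 genes of highest Pearson's r for each peptide gene. Symbols beginning with Gm or ending in Rik were left out of the latter. Intervals of ratios of counts are exact conditional binomial ones at 95%. Coordinates, exon lengths, identifiers and overlaps are from GENCODE M21 (GRCm38), and promoter windows of 250 bases are from RefSeq (GRCm38.p6), which matched 3 of the 4 genes. No sequence is shown for Vgf.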

Additional observations from a re-analysis of the deposited data

How the results depend on the processing

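Log2 changes of Ccl20, Nppb, Vgf and Npy kept their direction under all alternatives run for them, which left out DESeq2 and limma-voom. The genes were chosen for their increase, so nothing is read from this direction. Ccl20 had untreated libraries at 0, and its values with a smaller prior count were 5.59, 10.19 and 13.39 at 1, 2 and 4 h, so the value depends on that prior count. Without the 4 h library of clone b, the 4 h value was 8.31 for Ccl20 (9.39 with it) and 4.99 for Nppb (7.12 with it). With clone as a replicate block, the 4 h values were 9.15 for Ccl20, 6.56 for Nppb, 5.10 for Vgf and 5.10 for Npy. The clone differences of Ccl20 and Nppb stayed under 0.05 in every run, with adjusted p up to 0.0498 for Ccl20. That of Vgf was at 0.247 in DESeq2 and between 0.00113 and 0.0723 with a library or clone left out. That of Npy was between 0.00184 and 0.409 with a library or clone left out.

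Counts of listed genes moved more. With the replicate block they were 12 higher and 2 lower at 1 h, 11 lower at 2 h and 14 lower at 4 h, and the other counts stayed within 1.5 times. At 1 h, DESeq2 gave 6 higher and limma-voom 0. Leaving out libraries or clones gave 0 to 4 higher at 1 h, 0 to 24 higher and 0 to 6 lower at 2 h, and 10 to 30 higher and 2 to 9 lower at 4 h. Single libraries that moved a count by over 1.5 times were untreated clones a, b and c and treated clones b and c at 1 h, untreated clones a and b and treated clones b and c at 2 h, and untreated clone a and treated clone c at 4 h. Of 26 named genes called at 4 h, 10 kept their call under all 20 alternatives (Pomc, Pdyn, Trh, Nptx2, Cxcl12, Cxcl14, Cxcl16, Npr3, Nfkb1 and Etv4). Of 14 called at 2 h, 0 did, and each lost it without clone c. The cause was not tested, but leaving out a clone leaves fewer samples.

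The untreated values rest on few reads, with 0 to 13 per library. The 95% counting interval of the untreated ratio of clone b to clone a was 0.551 to 3.02 for Nppb. It was 0.0685 to 1.504 for Vgf and 0.482 to 3.45 for Npy. Clone differences before treatment could thus have been missed, and the size that could be detected was not measured.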
